A study of Rattus norvegicus with 15 samples.

Results

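The interleukins and their receptors on the array were taken by name: every probe outside the controls whose gene name began with Il followed directly by a digit. This gave 83 probes of 65 genes, out of 41012 probes and 17347 named genes, and comprised 26 genes for ligands, 33 for receptor chains and 6 for inhibitors or decoys. The measurements were total RNA levels in a piece of small intestine from 15 male rats, 1 array per rat. They formed 3 groups of 5. Wistar rats had no operation and served as the nondiabetic strain. GK-Sham-PF rats were Goto-Kakizaki (GK) rats, nonobese animals that become diabetic spontaneously, and had an incision and reconnection of the intestine at 16 wk of age and were then pair-fed. GK-S-30 rats were GK rats that had Roux-en-Y gastric bypass (RYGB) at 16 wk of age with a Roux limb (RL) of 30 cm. Tissue was taken at 14 wk postoperation, from the RL in GK-S-30 rats and from the corresponding unrearranged piece in GK-Sham-PF and Wistar rats, which the methods describe as age-matched. Strain, sham operation and pair-feeding therefore differed together for GK-Sham-PF versus Wistar, and strain and RYGB for GK-S-30 versus Wistar. Their parts cannot be told apart in these pairs.

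Interleukins are secreted signals between immune, epithelial and stromal cells. Most act through receptors built from a ligand-specific chain and a chain shared within a family, such as the gamma chain Il2rg, the IL-6 family chain Il6st (gp130) or the IL-1 family chain Il1rap. The IL-1 family also has built-in brakes, among them the decoy receptor Il1r2, the receptor antagonist Il1rn and the IL-18 binding protein Il18bp. In the intestine, IL-33 and IL-25 are known as alarm signals of barrier tissue, IL-18 is made by the epithelium as a precursor, and IL-17 and IL-22 act on the epithelium to raise antimicrobial defence.

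Levels are log2 of the scanner's processed signal after quantile normalization, in arbitrary units, so levels of different probes cannot be set against each other. Where 3 group means are given in a row, they stand in the order Wistar, GK-Sham-PF, GK-S-30. Testing was limited to probes that all 5 arrays of some group measured well above background. In all 56 of the 83 probes (67.5%, against 68% of all probes), from 41 genes, met this, and 47 were above background on all 15 arrays. Each probe was kept apart, and p-values from limma were adjusted over all 27892 tested probes, with a threshold of 0.05. Arrays were similar in quality, with 66.7% to 74.8% of probes above background, although Wistar replicate 3 and GK-Sham-PF replicate 5 had the dimmest signals. Epithelial markers were bright in every group, and markers of gastric glands and squamous epithelium summed to low signals (831 to 1440 and 142 to 307). Of 5 genes whose level is known to vary along the small intestine, Fabp6 (1.71 on the log2 scale) and Slc10a2 (3.43) were higher for GK-S-30 versus GK-Sham-PF, while Cubn (-2.20, adjusted p = 0.0577), Gata4 (0.19) and Fabp1 (-0.03) did not pass. For GK-S-30 versus Wistar, Fabp6 (2.08) and Slc10a2 (1.02) were higher and Cubn was lower (-2.34). Slc10a2 also differed between the unrearranged groups, being lower for GK-Sham-PF versus Wistar (-2.41). The part of position along the intestine in the values that follow was not tested. In whole tissue, fewer cells of a type and less RNA per cell cannot be told apart.

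For GK-S-30 versus GK-Sham-PF, 7 interleukin or receptor probes of 6 genes passed, all of them higher after RYGB, which is 12.5% of those tested against 6.70% of all probes (3.90% higher and 2.80% lower). These were Il1rl1 (the variant 1 probe), Il33, Il18 (2 probes), Il1r2, Il17rb and Il17re. For GK-Sham-PF versus Wistar 5 probes passed (8.93%, against 7.84% of all probes, 3.61% higher and 4.23% lower). In GK-Sham-PF rats Il6st (the A_44_P668233 probe alone), Il1rl1 (the variant 2 probe), Il2rb and Il18 (the A_44_P161233 probe) were higher. Il9r, not above background in GK rats, was lower. For GK-S-30 versus Wistar 22 probes of 15 genes passed (39.3%, against 22.8% of all probes), 11 higher and 11 lower (10.9% and 11.8% of all probes). The groups did not overlap in 6, 6 and 14 of the 56 probes for these pairs, against 7.71%, 8.82% and 18.0% of all probes. The 3 pairs share their groups and are not independent of each other. The median log2 fold change of the tested interleukin probes was -0.137, -0.005 and -0.117 for the same pairs, against -0.025, -0.001 and -0.027 for all probes.

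**Figure D1:**
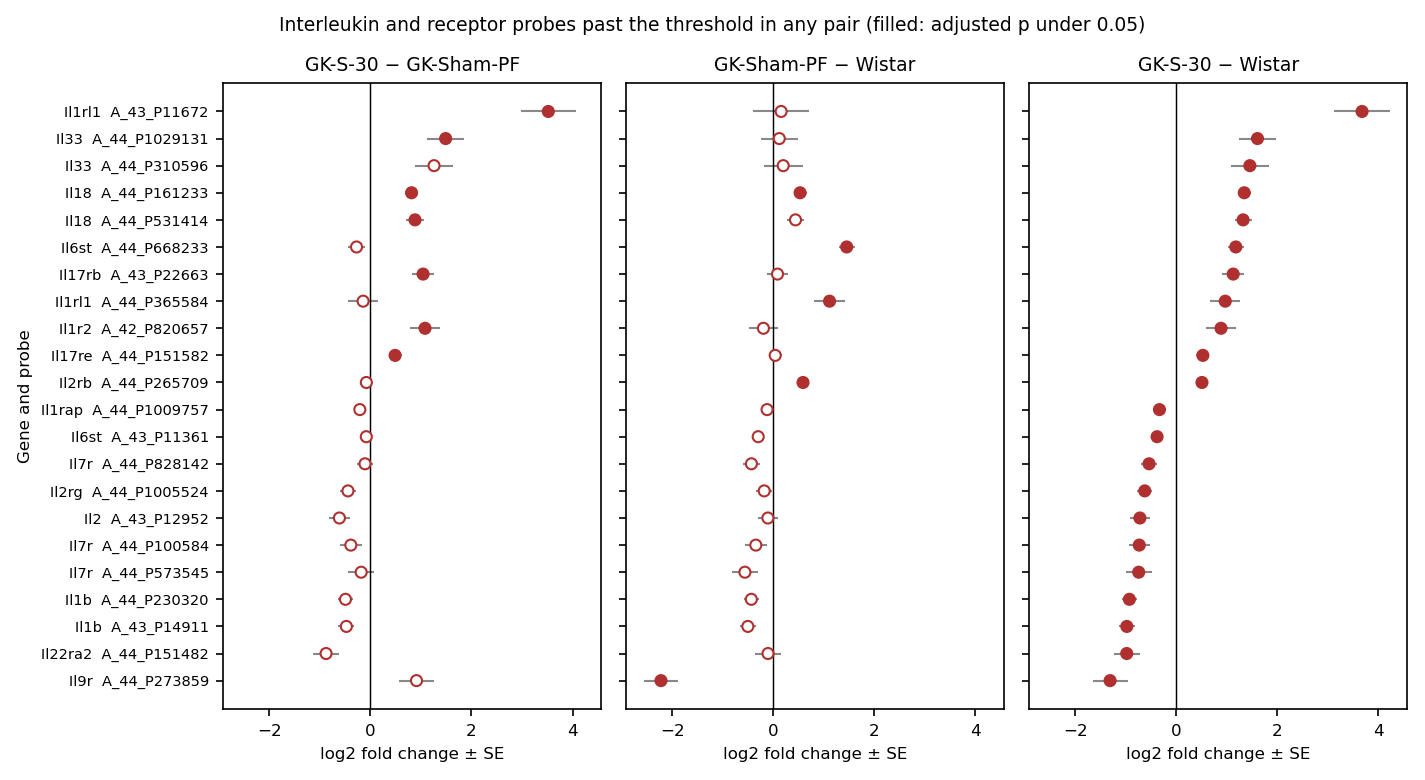
Log2 fold change (x axis, ± SE from limma) of the 22 interleukin and receptor probes past the threshold in any pair (y axis, gene and probe), for the 3 pairs of groups, with filled points at an adjusted p under 0.05. Every filled point lies to the right of 0 for GK-S-30 versus GK-Sham-PF, and 11 lie on each side for GK-S-30 against Wistar.

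The split by direction depended on the scaling. Scaling to the 75th percentile gave 12 probes for GK-S-30 versus GK-Sham-PF, 8 higher and 4 lower, the lower ones being Il22ra2, Il2, Il1r1 and Il10, and normexp background correction gave 7 higher and 1 lower, Il22ra2. For GK-Sham-PF versus Wistar normexp gave 3 higher and 3 lower. Arrays also lay on 4 slides that did not each hold every group. One slide held GK-Sham-PF replicates 4 and 5 with GK-S-30 replicates 1 and 2, and within it the 7 probes called between these groups were all higher in GK-S-30, by 0.39 to 4.50 on the log2 scale. Those arrays also went into the calls, so the shared direction is no separate support for them. With slide as a block, which rests on those arrays, Il1rl1 variant 1 and both Il33 probes passed (adjusted p = 0.0292, 0.0292 and 0.0467) and the other 5 called probes did not (0.0977 to 0.297). Another slide held Wistar replicate 1 with GK-Sham-PF replicates 1 to 3, and within it the 5 probes called between those groups kept their direction, although none passed with slide as a block (0.0622 to 0.952). The arrays of this slide, with a single Wistar rat, also went into the calls, so the same limit holds. GK-S-30 and Wistar rats shared no slide, and none of the 22 probes passed in that limma fit (11 of the 56 tested had an unadjusted p under 0.05).

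A probe of Il1rl1, the gene of the IL-33 receptor, showed the largest log2 fold change of the tested interleukin and receptor probes. Il1rl1 (also called ST2) gives rise to a membrane receptor and to a soluble decoy, and the array holds a probe for each of 2 transcript variants. The files' annotation names them variant 1 and variant 2 without saying which form either encodes. Their sequences (rn4, plus strand, 5′ to 3′, stop triplets of any forward frame in capitals) are shown because the probes behaved differently.
Il1rl1 variant 1 probe, first 30 of 60 bases, probe at chr9:39617225-39617284: ttttTAAttcacctgttgctattcaaatca
Il1rl1 variant 2 probe, all 60 bases, aligned across chr9:39619275-39620742: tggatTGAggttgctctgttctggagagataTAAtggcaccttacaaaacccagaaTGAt
The variant 2 probe covers 1468 bases of the genome with 60 bases, so its alignment is split along the genome, and 1 frame is open through it. The probes lie 1990 bases apart and share no run longer than 6 bases.

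The variant 1 probe read 10.23, 7.68, 6.37, 8.20 and 9.35 in the 5 GK-S-30 rats. It read 4.61, 5.72, 4.99, 4.31 and 4.59 in GK-Sham-PF rats and 4.20, 5.47, 4.91, 4.12 and 4.74 in Wistar rats. Every GK-S-30 rat lay above every other rat, but they differed widely, with replicate 1 highest and replicate 3 closest to the controls. The mean was 8.37 ± 1.5 (SD, n = 5) against 4.85 ± 0.55 in GK-Sham-PF rats, a log2 fold change of 3.52 ± 0.55 (SE, 11.5-fold, adjusted p = 0.0015 by limma), and 3.68 ± 0.55 against Wistar rats (12.8-fold, adjusted p = 0.000203). The size depended on the background correction and its offset. Normexp was run with an offset of 50 signal units, which by itself shrinks the log2 changes of dim probes. It gave 1.97 and 2.03 on the log2 scale for the Il1rl1 variant 1 probe (limma adjusted p = 0.00553 and 0.00123). The call for GK-S-30 versus GK-Sham-PF stayed past the threshold in all 29 alternative fits.

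The variant 2 probe of Il1rl1 differed between the other pair of groups. It read 4.67 to 6.01 in GK-Sham-PF rats against 3.54 to 4.58 in Wistar rats, without overlap, a log2 fold change of 1.11 ± 0.30 (SE, adjusted p = 0.0316). For GK-S-30 versus GK-Sham-PF the difference was -0.14 ± 0.30 (adjusted p = 0.849), with GK-S-30 rats between 4.12 and 5.41. GK-Sham-PF replicate 3 stood above the other 4 rats of its group, which lay at 4.67 to 4.95. The call for GK-Sham-PF versus Wistar was lost when Wistar replicate 1, 2, 4 or 5 or GK-Sham-PF replicate 2 or 3 was left out (adjusted p = 0.058 to 0.0816), and that for GK-S-30 versus Wistar (0.97 ± 0.30, adjusted p = 0.0292) without Wistar replicate 1, 2, 4 or 5 or GK-S-30 replicate 1, 4 or 5 (0.0527 to 0.0735). Both calls also ended with normexp, where the changes fell to 0.27 and 0.18 (adjusted p = 0.133 and 0.22), and without the filter on dim probes (0.0589 and 0.0509), and the second ended with 75th percentile scaling (0.0638).

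The difference between probes was tested over all 11 genes with more than 1 tested probe, as the change of 1 probe minus that of another in 60 comparisons with a two-sided exact permutation test. For Il1rl1 the variant 1 probe changed by 3.67 (log2) more than the variant 2 probe for GK-S-30 versus GK-Sham-PF (exact p = 0.00794, the smallest that 5 against 5 arrays allow, and 0.0681 after Benjamini-Hochberg adjustment). Only Il1rl1 and Il6st reached that smallest p, in 7 comparisons, and no comparison passed 0.05 after adjustment.

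**Figure D2:**
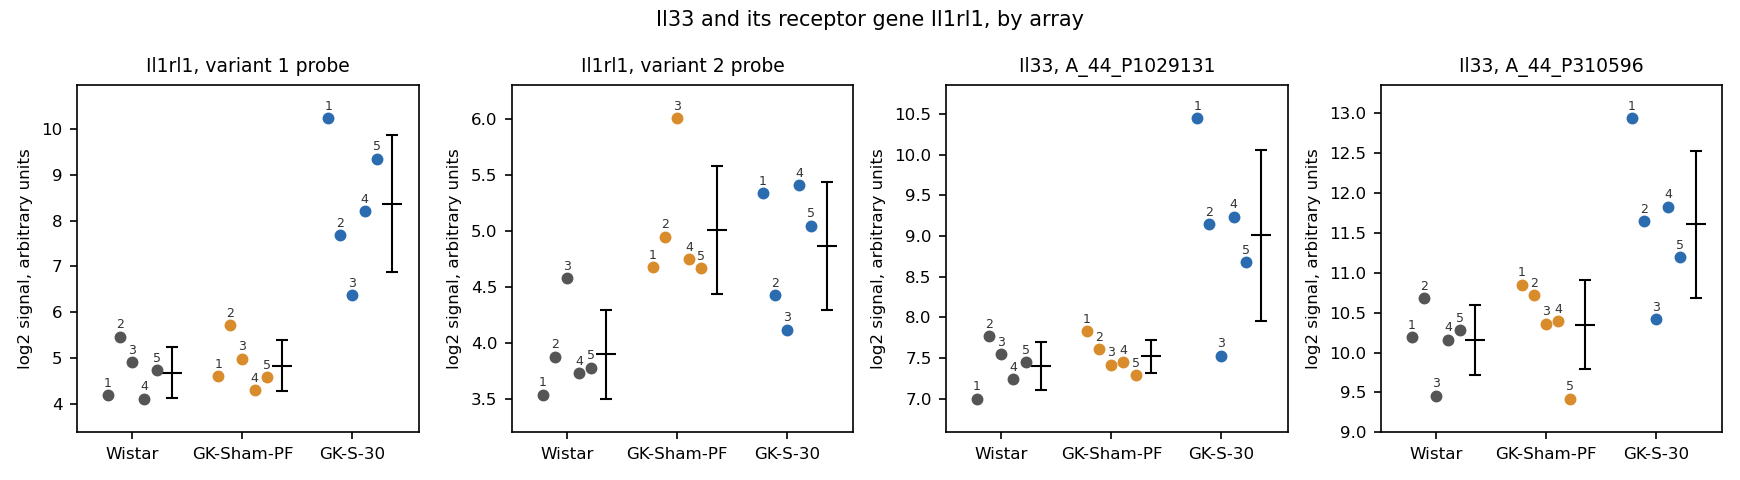
Log2 signal (y axis, arbitrary units) of the 2 Il1rl1 probes and the 2 Il33 probes in each rat of the 3 groups (x axis), with replicate numbers beside the points and the mean ± SD (n = 5) as a bar. For Il1rl1 variant 1 all 5 GK-S-30 rats lie above the rest, with replicate 1 highest at 10.23 and replicate 3 lowest at 6.37, and the Il33 probes show the same highest and lowest rat.

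Il33 itself, an IL-1 family cytokine stored in the nucleus of stromal and epithelial cells and released on damage, was higher in GK-S-30 rats as well. The A_44_P1029131 probe read 10.45, 9.15, 7.53, 9.24 and 8.68 in GK-S-30 rats, against 7.29 to 7.83 in GK-Sham-PF rats and 7.0 to 7.77 in Wistar rats. The 4 GK-S-30 rats other than replicate 3 lay above both control groups, and replicate 3 lay within them. The log2 fold change was 1.49 ± 0.37 (SE, 2.81-fold, adjusted p = 0.0246) against GK-Sham-PF and 1.61 ± 0.37 (adjusted p = 0.00542) against Wistar rats. The first call was lost without GK-Sham-PF replicate 3 or 4 (adjusted p = 0.0523 and 0.0505). The A_44_P310596 probe, 1047 bases away, changed by 1.26 ± 0.38 against GK-Sham-PF rats, which did not pass (adjusted p = 0.0631), and by 1.46 ± 0.38 against Wistar rats, which did (0.0131). Without GK-S-30 replicate 3 it passed in the first pair as well.

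Il1r2, the decoy receptor that binds IL-1 without signalling, was past the threshold for GK-S-30 versus GK-Sham-PF. It was the only gene classed here as an inhibitor or decoy to pass, with Il1rl1 classed as a receptor whichever form its probes measure. It read 7.99, 6.58, 6.13, 7.23 and 7.82 in GK-S-30 rats, 5.91 to 6.32 in GK-Sham-PF and 5.75 to 6.54 in Wistar rats. As with Il33, replicate 3 lay within the range of the controls. The log2 fold change was 1.08 ± 0.29 (SE, adjusted p = 0.0389), and this call was the weakest of the set. It was lost without any 1 of the 5 GK-Sham-PF rats or of GK-S-30 replicates 1, 4 and 5 (adjusted p = 0.0591 to 0.1), and also without the 2 dimmest arrays (0.0679) or the filter on dim probes (0.0693). Against Wistar rats it was 0.88 ± 0.29 (adjusted p = 0.0415), a call that held in 5 of 15 fits that left 1 array out, the losses being Wistar replicates 1 to 4, GK-Sham-PF replicates 1, 3 and 4 and GK-S-30 replicates 1, 4 and 5 (0.0504 to 0.108). It was also lost with 75th percentile scaling (0.0574) and without the filter on dim probes (0.0691). With normexp the Il1r2 changes were 0.64 and 0.51.

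Il18, which inflammasomes process into an active cytokine that promotes interferon gamma, was highest in GK-S-30 rats, lowest in Wistar rats and in between in GK-Sham-PF rats. The A_44_P161233 probe read 12.13, 11.89, 12.37, 12.13 and 12.13 in GK-S-30 rats. It read 11.24, 11.45, 11.31, 11.51 and 11.06 in GK-Sham-PF rats and 11.06, 10.64, 10.47, 10.90 and 10.85 in Wistar rats. GK-S-30 rats did not overlap with either group, while GK-Sham-PF and Wistar rats met at 11.06. The log2 fold change was 0.82 ± 0.13 (SE, adjusted p = 0.0015) for GK-S-30 versus GK-Sham-PF, 0.53 ± 0.13 (adjusted p = 0.0163) for GK-Sham-PF versus Wistar, and 1.34 ± 0.13 (adjusted p = 2.55e-06) for GK-S-30 versus Wistar. The A_44_P531414 probe, on another stretch of the gene, gave 0.88 ± 0.17, 0.44 ± 0.17 and 1.32 ± 0.17, of which the second did not pass (adjusted p = 0.154). All of the Il18 calls held when any 1 array was left out. Il18bp, the secreted inhibitor of IL-18, averaged 7.05, 7.45 and 7.46 and passed in no pair.

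Il1b, the IL-1 cytokine of myeloid cells, ran the other way. Its A_43_P14911 probe averaged 9.29 ± 0.24 (SD, n = 5) in Wistar rats, 8.79 ± 0.20 in GK-Sham-PF rats and 8.31 ± 0.33 in GK-S-30 rats, and its A_44_P230320 probe 9.56 ± 0.20, 9.12 ± 0.20 and 8.63 ± 0.33. With both probes every GK-S-30 rat lay below every Wistar rat. Of the pairs only GK-S-30 versus Wistar passed, at -0.98 ± 0.16 (SE, adjusted p = 0.000417) and -0.93 ± 0.15 (0.000481). Without GK-S-30 replicate 3, the rat with the highest Il1b of its group, both probes also passed for GK-S-30 versus GK-Sham-PF. The myeloid markers had 3 of 7 genes lower and 1 higher for GK-S-30 versus Wistar, against 11.8% and 10.9% of all probes, and their summed signal was 33900 to 49700 against 53300 to 69800. Their part in the Il1b values was not tested.

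**Figure D3:**
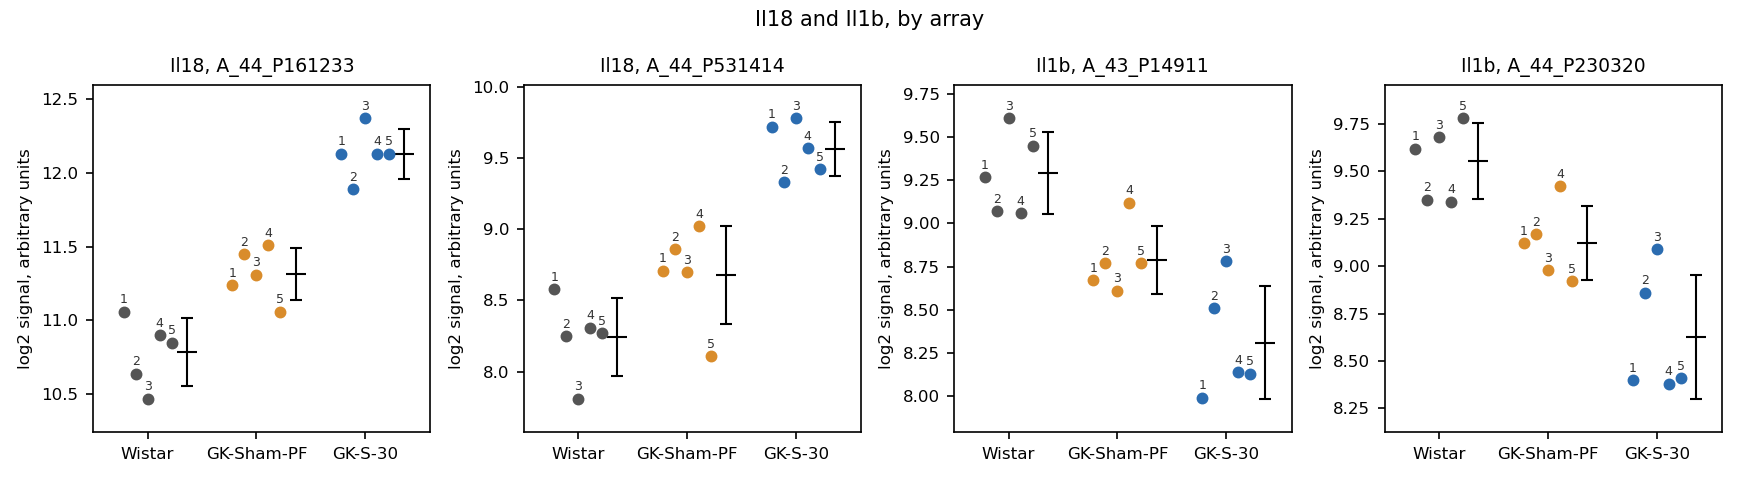
Log2 signal (y axis, arbitrary units) of 2 probes each for Il18 and Il1b in each rat of the 3 groups (x axis), with replicate numbers beside the points and the mean ± SD (n = 5) as a bar. Il18 is highest and Il1b lowest in GK-S-30 rats, with GK-Sham-PF means between the other groups.

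Among other IL-1 family members, the shared receptor chain Il1rap was lower in GK-S-30 than in Wistar rats by -0.33 ± 0.10 on the log2 scale (adjusted p = 0.0241), a call lost without Wistar replicate 1 or GK-S-30 replicate 3 (0.0554 and 0.0627). The signalling receptor Il1r1 changed by -0.78 for GK-S-30 versus GK-Sham-PF with 1 probe and by -0.23 with the other, neither past the threshold, and both probes were above background on 3 of 5 GK-S-30 arrays. The A_44_P462661 probe of the antagonist Il1rn averaged 9.03, 9.22 and 8.77, and Il1f8 (now Il36b) averaged 9.61, 8.92 and 9.71, none of which passed. The other Il1rn probe and Il1f6 (now Il36a) passed in no pair either.

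Of 5 tested probes of 4 IL-17 family receptors, those of Il17rb and Il17re were higher for GK-S-30 versus GK-Sham-PF and the other 3 did not pass. Il17rb, the receptor chain for IL-25, read 5.34, 5.77, 5.88, 5.06 and 5.88 in GK-S-30 rats, against 4.17 to 5.05 in GK-Sham-PF and 3.99 to 4.91 in Wistar rats. No GK-S-30 rat fell within the control range, though replicate 4 at 5.06 lay just above the highest control at 5.05. The log2 fold change was 1.04 ± 0.21 (SE, adjusted p = 0.00879) against GK-Sham-PF rats and 1.13 ± 0.21 (0.0014) against Wistar rats, and both calls held when any 1 array was left out. With normexp background correction the Il17rb changes were smaller, 0.29 and 0.34 (adjusted p = 0.0164 and 0.00161). Il17re, a receptor chain for epithelial IL-17C, read 9.80 to 10.21 in GK-S-30 rats, 9.19 to 9.78 in GK-Sham-PF and 9.33 to 9.54 in Wistar rats. The change of 0.49 ± 0.13 (adjusted p = 0.0334) against GK-Sham-PF rats was lost without GK-Sham-PF replicate 1 or 2 or GK-S-30 replicate 1, 2, 4 or 5 (0.0502 to 0.0888) and without the filter on dim probes (0.0504), whereas that of 0.53 ± 0.13 (0.00837) against Wistar rats held in each of these fits.

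Il17rc, the partner chain in the receptor for IL-17A and IL-17F, read 6.56 to 6.99 in GK-Sham-PF rats and 5.89 to 6.56 in Wistar rats. The ranges met at 6.56 after rounding, and the difference of 0.40 on the log2 scale did not pass (adjusted p = 0.136). Il17ra, the chain that the family's receptors share, averaged 5.05, 4.70 and 5.04 with 1 probe and 4.82, 4.56 and 5.21 with the other. Of the ligands, Il17b averaged 7.15, 7.15 and 6.84, and Il17a and Il17d were above background on no array. No probe was named for Il25, Il17c, Il17f or Il22.

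Tuft cells, the known epithelial source of IL-25, had 4 of 6 listed markers on the array, and all 4 (Dclk1, Pou2f3, Trpm5 and Avil) were higher for GK-S-30 versus GK-Sham-PF (3.90% of all probes were), with a median log2 fold change of 1.66. Their summed signal was 1600 to 2950 in GK-S-30, 240 to 1280 in GK-Sham-PF and 577 to 1310 in Wistar rats. Smooth muscle markers were higher too, 4 of 6 tested (3.90% of all probes were), with a summed signal of 83700 to 111000 against 23200 to 49600 and 25200 to 45100. The fibroblast list was split. Of its 4 markers, 2 (Col1a1 and Col3a1) were higher, while Pdgfra (-0.35, limma adjusted p = 0.0854) and Dcn (-0.06) went the other way without passing. GK-S-30 replicate 3 was the rat with the lowest Il1rl1 variant 1, Il33 and Il1r2 in its group. Its smooth muscle, tuft and fibroblast sums of 108000, 2290 and 18400 lay inside the range of the other 4 rats of its group. Its epithelial (309000) and mast cell (3380) sums were the lowest of the group, and its myeloid sum (49700) was the highest. The part of these cell types in the interleukin values was not tested.

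**Figure D4:**
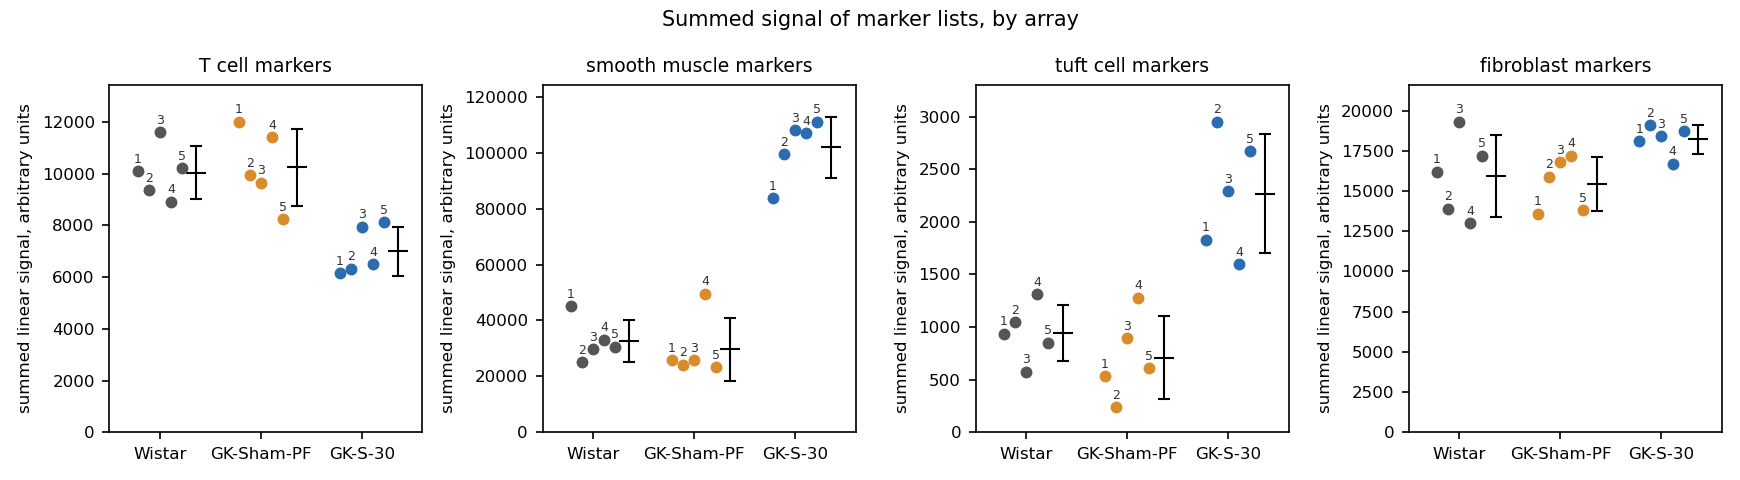
Summed linear signal (y axis, arbitrary units, from 0) of the T cell, smooth muscle, tuft cell and fibroblast marker lists in each rat of the 3 groups (x axis), with replicate numbers and the mean ± SD (n = 5). T cell sums are lowest and smooth muscle and tuft cell sums highest in GK-S-30 rats, with no overlap with GK-Sham-PF rats in these 3 lists.

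Receptors of the common gamma chain family, which lymphocytes use to sense IL-2, IL-4, IL-7, IL-9, IL-15 and IL-21, had 10 tested probes of 7 genes, of which 5 were lower and 1 was higher in GK-S-30 than in Wistar rats, against 11.8% and 10.9% of all probes. One of the 5 lower probes is that of Il9r, which was not above background in GK rats. Il2rg, the gamma chain itself, read 6.82 to 7.20 in GK-S-30 rats and 7.26 to 8.04 in Wistar rats, without overlap, a log2 fold change of -0.63 ± 0.15 (SE, adjusted p = 0.00847). Il7r, the IL-7 receptor of T cells and innate lymphoid cells, was lower with all 3 probes, by -0.73 ± 0.21, -0.75 ± 0.26 and -0.54 ± 0.17 (adjusted p = 0.021, 0.0495 and 0.0273). These Il7r calls were sensitive to single rats: the A_44_P100584 probe lost its call without GK-S-30 replicate 2 (0.052), the A_44_P828142 probe without Wistar replicate 4 or 5 or GK-S-30 replicate 1, 2 or 3 (0.0505 to 0.0666), and the A_44_P573545 probe without Wistar replicate 1, 3, 4 or 5, GK-Sham-PF replicate 1, 2 or 3 or GK-S-30 replicate 1, 2 or 3 (0.0607 to 0.116). The last of these also ended with the authors' deposited values (0.0503), with outlier-flagged spots kept (0.0504), without the filter on dim probes (0.0797) and without the 2 dimmest arrays (0.0794). The cytokine Il2 was low in every group, at 4.39 to 4.79 in Wistar and 3.48 to 4.40 in GK-S-30 rats (-0.72 ± 0.20, adjusted p = 0.0175), with 1 GK-S-30 array not above background. With normexp the Il2 call ended (-0.12, adjusted p = 0.115), and the Il2rg and Il7r calls held with smaller changes of -0.36 for Il2rg and -0.31, -0.48 and -0.31 for Il7r. None of Il2rg, Il7r and Il2 passed for GK-S-30 versus GK-Sham-PF or for GK-Sham-PF versus Wistar.

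The T cell markers were lower in the same pair: 4 of 8 tested genes (Cd3d, Cd3e, Cd3g and Cd8b) passed for GK-S-30 versus Wistar (11.8% of all probes were lower), and the same 4 for GK-S-30 versus GK-Sham-PF (2.80%). Their summed signal was 6140 to 8110 in GK-S-30 rats, 8240 to 12000 in GK-Sham-PF rats and 8920 to 11600 in Wistar rats. Of the B and plasma cell markers, 3 of 3 tested were higher for GK-S-30 versus Wistar, against 10.9% of all probes. Of 3 tested endothelial markers 1 was lower in that pair, against 11.8% of all probes. The part of these cells in the receptor values was not tested.

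Il2rb, the signalling chain shared by the IL-2 and IL-15 receptors, differed from the rest of its family. It read 8.51, 8.29, 8.28, 8.11 and 8.30 in GK-Sham-PF rats and 8.18, 8.63, 8.21, 8.04 and 8.02 in GK-S-30 rats, against 7.61, 7.72, 7.80, 7.61 and 7.82 in Wistar rats. Both GK groups lay entirely above Wistar rats and overlapped each other. The log2 fold changes against Wistar rats were 0.59 ± 0.12 (SE, adjusted p = 0.00453) and 0.51 ± 0.12 (0.00589), and both held when any 1 array was left out. The position of this probe on rn4 is not given in the files.

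Il9r, the receptor of the mast cell growth factor IL-9, was above background on all 5 Wistar arrays and on no array of either GK group. It read 3.53, 4.25, 3.80, 4.54 and 4.22 in Wistar rats, and a value in a GK rat is only a bound. Against the lowest signal above background on each array, Il9r was at least 1.78-fold higher in Wistar than in GK-Sham-PF rats (measured means 4.07 and 1.84, adjusted p = 0.000543) and at least 1.47-fold higher than in GK-S-30 rats (measured mean 2.76, adjusted p = 0.0131). Il9r entered the test only through the Wistar group, where it is high, and these p-values rest on GK readings below background, so they add nothing to the detection counts. The bounds hold for the processed signal only, since normexp, with its offset of 50, gave -0.20 and -0.18 on the log2 scale. The IL-9 gene's own probe was above background on no array. Of the 7 mast cell markers, all tested, 2 were lower for GK-S-30 versus GK-Sham-PF (Ms4a2 and Mcpt2), against 2.80% of all probes. For GK-Sham-PF versus Wistar 1 was higher (Mcpt2), against 3.61% of all probes. For GK-S-30 versus Wistar 1 was lower (Ms4a2), against 11.8%.

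Other members of the family passed in no pair. Il4ra (now Il4r), the IL-4 receptor chain, averaged 9.74, 9.97 and 10.03, and Il15, a survival factor for intraepithelial lymphocytes, 9.05, 9.04 and 8.71. The A_43_P11741 probe of Il2ra, the chain that gives the IL-2 receptor its high affinity, averaged 5.79, 5.68 and 5.53. Il7 averaged 4.58, 4.19 and 4.93. Il21r averaged 6.25, 7.16 and 6.07, with GK-Sham-PF replicate 4 at 9.01 and the other 4 rats of its group at 6.05 to 7.41. The tested Il4 probe was above background on 3 Wistar arrays, 5 GK-Sham-PF arrays and 1 GK-S-30 array, with readings of 3.11 to 3.95 in GK-Sham-PF and 1.87 to 3.59 in GK-S-30 rats, and the difference did not pass (-0.73, adjusted p = 0.162).

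In the IL-6 and IL-12 family, the 3 probes for Il6st, the gp130 chain through which IL-6 and IL-11 signal, disagreed in direction. The start of each probe (30 of 60 bases, rn4, plus strand, 5′ to 3′, stop triplets of any forward frame in capitals) is given because the last 2 lie only 67 bases apart.
Il6st A_44_P363090, chr2:43833273-43833332: actccaaagatcagatgtactcagatgcca
Il6st A_43_P11361, chr2:43836188-43836247: tctggatgcacgTAActtgtatttTAGgta
Il6st A_44_P668233, chr2:43836315-43836374: aaggcaatcagaaaacaacctatcttgtgg
The A_44_P668233 probe read 6.65, 6.34, 7.04, 6.39 and 6.55 in Wistar rats. It read 7.79, 8.0, 8.15, 7.88 and 8.40 in GK-Sham-PF rats and 7.62, 7.67, 7.54, 8.21 and 7.82 in GK-S-30 rats. Both GK groups lay above all Wistar rats, by 1.45 ± 0.16 (SE, adjusted p = 1.8e-05) and 1.18 ± 0.16 (8.74e-05) on the log2 scale. With normexp the second Il6st change was 0.74.

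The neighbouring A_43_P11361 probe went the other way. It averaged 11.72 ± 0.10, 11.42 ± 0.10 and 11.34 ± 0.16 (SD, n = 5), with both GK groups below every Wistar rat, and passed only for GK-S-30 versus Wistar (-0.38 ± 0.09, adjusted p = 0.00896; for GK-Sham-PF against Wistar -0.30 ± 0.09, 0.0682). The A_44_P363090 probe averaged 8.03, 8.13 and 8.04 and passed in no pair. For GK-Sham-PF versus Wistar the change of the A_43_P11361 probe minus that of the A_44_P668233 probe was -1.75 (log2, exact permutation p = 0.00794, adjusted 0.0681). These probes give no single direction for Il6st as a gene.

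**Figure D5:**
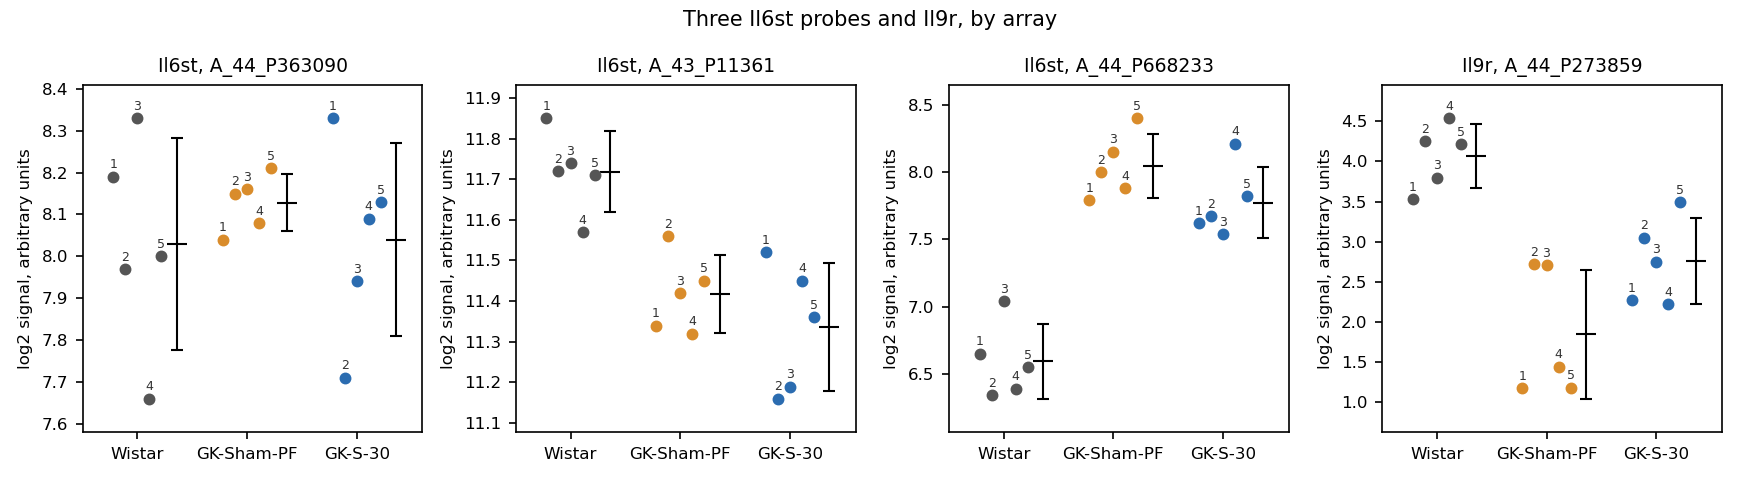
Log2 signal (y axis, arbitrary units) of the 3 Il6st probes and the Il9r probe in each rat of the 3 groups (x axis), with replicate numbers and the mean ± SD (n = 5). The A_44_P668233 probe is higher and the A_43_P11361 probe lower in GK than in Wistar rats, and the Il9r values of GK rats are not above background.

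The ligand-specific chains of this family did not pass. Il11ra1 averaged 8.48, 8.65 and 8.76, and Il6r, the IL-6 receptor, 7.33, 7.50 and 7.30. Il27ra, the IL-27 receptor chain, averaged 6.11, 6.50 and 5.93 (GK-S-30 minus GK-Sham-PF -0.56, adjusted p = 0.094). Il6, spotted 10 times on each array, was above background on 1 Wistar array, 2 GK-Sham-PF arrays and no GK-S-30 array and was not tested. Il12a was the only ligand of the family with a tested probe and averaged 5.61, 5.46 and 5.81. Il11, Il23a and Il12b were above background on 0, 0 and 1 of the 15 arrays.

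In the IL-10 family, Il22ra2, a secreted protein that captures IL-22, was lower in GK-S-30 rats. Its tested probe read 7.82, 7.40, 6.82, 7.30 and 7.53 in GK-S-30 rats, 7.54 to 8.73 in GK-Sham-PF and 7.66 to 8.75 in Wistar rats, and overlapped with each at its highest rat. The log2 fold change was -0.98 ± 0.25 (SE, adjusted p = 0.0114) against Wistar rats. Against GK-Sham-PF rats it was -0.88 ± 0.25 (adjusted p = 0.0504), just outside the threshold, and it passed in 10 of 29 alternative fits, among them those without Wistar replicate 1 or 3, GK-Sham-PF replicate 3 or GK-S-30 replicate 1. Il10, an anti-inflammatory cytokine, was near the lower end of the measurable range and read 4.03 to 4.16 in GK-S-30 rats and 4.33 to 4.74 in GK-Sham-PF rats. It did not overlap between these groups but did not pass (-0.40 ± 0.12, adjusted p = 0.0645). The receptor chains Il10rb and Il20ra averaged 7.85 to 7.89 and 7.67 to 7.80 over the groups, and Il22ra1, the signalling IL-22 receptor, averaged 6.67, 6.88 and 6.64.

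Members of the type 2 and beta chain group passed in no pair. Il13ra1, a receptor chain for IL-13, had 4 probes, which changed by -0.07 to -0.35 on the log2 scale for GK-S-30 versus GK-Sham-PF. Il3ra averaged 8.69, 8.55 and 8.62, and Il13 4.76, 5.35 and 4.95. Il3 was above background on 1 array, and Il5, Il5ra and the IL-13 decoy Il13ra2 on none. Il16, a chemoattractant outside these families, averaged 4.92, 4.83 and 4.79.

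The 27 untested probes comprised 15 that were above background on no array and 12 that were above background on some, and 24 genes had no tested probe. Besides those already given, Il1a was above background on 4 Wistar arrays, 2 GK-Sham-PF arrays and no GK-S-30 array, and Il12rb1 on 4, 4 and 3. Il12rb2, Il18rap, Il24 and Il28ra (now Ifnlr1) were above background on 2, 1, 1 and 4 of the 15 arrays, and 1 of 2 Il36rn probes on 7. Il10ra, Il1f10, Il1rapl1, Il1rapl2, Il1rl2 and Il31ra were above background on none. A probe that was not well above background was not measured, and its transcript may still be present at a low level.

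Genes that act with interleukins were counted in lists that did not include the members themselves. Of 28 tested signalling genes (Janus kinases, STAT factors, SOCS inhibitors and the IL-1 receptor adaptors), 0 were higher and 2 lower for GK-Sham-PF versus Wistar, and 2 and 4 for GK-S-30 versus Wistar, which is near the 7.84% and 22.8% of all probes. The 2 that were lower in GK-Sham-PF rats were Traf6, the ubiquitin ligase of the IL-1 and IL-17 pathways (-1.23), and Socs2 (-1.05). The list's medians for these pairs, 0.07 and -0.01, lay near those of all probes. Of 17 tested relatives of these cytokines and receptors under other names, 0 were higher and 1 was lower in each pair. Of all probes, 6.70% were called in either direction for GK-S-30 versus GK-Sham-PF, 7.84% for GK-Sham-PF versus Wistar and 22.8% for GK-S-30 versus Wistar. Of 11 tested genes listed for the inflammasome, not all of which themselves mature IL-1β and IL-18, 3 were lower for GK-S-30 versus GK-Sham-PF. These were Mefv, Txnip and P2rx7 (-0.43 to -0.68), against 2.80% of all probes, with a list median of -0.19. Casp1 (-0.31, limma adjusted p = 0.0658) and Pycard (-0.27, 0.114) did not pass in that pair. For GK-Sham-PF versus Wistar 1 of the list was higher (Txnip, 0.65), against 3.61% of all probes. For GK-S-30 versus Wistar 3 were lower (Pycard, Mefv and P2rx7), against 11.8% of all probes.

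Genes that IL-17 and IL-22 are known to induce in epithelium were counted in the same way. Of 12 tested, 5 were higher for GK-Sham-PF versus Wistar, against 3.61% of all probes, with a median log2 fold change of 1.82 against -0.001 for all probes. For GK-S-30 versus Wistar 7 were higher and 1 was lower (median 0.96), against 10.9% and 11.8% of all probes. For GK-S-30 versus GK-Sham-PF 3 were higher and 1 lower (median -0.10), against 3.90% and 2.80% of all probes. S100a8, counted among the 5 and the 7 higher genes, was above background on only 1 of 5 Wistar arrays. It entered the test only through the GK groups, where it is high. Its calls against Wistar rats, and its share in those medians, rest on Wistar readings mostly below background. The summed signal of this list was 212000 and 360000 in GK-Sham-PF replicates 3 and 5, against 19500 to 29100 in the other 3 GK-Sham-PF rats, 9980 to 24000 in Wistar rats and 323000 to 428000 in GK-S-30 rats, so the GK-Sham-PF rats were not alike in this sum. Its largest terms in GK-S-30 rats were Reg3b and Reg3g, which did not pass for GK-Sham-PF versus Wistar (limma adjusted p = 0.211 and 0.204). Of the genes that did, S100a8, S100a9, Lcn2 and Pigr had SDs of 0.36, 0.35, 0.49 and 0.24 in GK-Sham-PF rats, and Duox2 had 1.30. Duox2, a hydrogen peroxide-producing oxidase, rose by 6.27 and the antimicrobial lectin Reg3g by 3.76 on the log2 scale for GK-S-30 versus GK-Sham-PF, while the chemokine Cxcl1 fell by 2.35. Of 10 genes of the IL-4 and IL-13 response, 1 was higher and 2 were lower in that pair, against 3.90% and 2.80% of all probes. Clca1, a mucus regulator of goblet cells, was higher by 0.73 and the chemokine Ccl26 lower (-1.90). None of this list passed for GK-Sham-PF versus Wistar. For GK-S-30 versus Wistar 3 were higher and 2 lower, against 10.9% and 11.8% of all probes.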

How the data were processed

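Total RNA from 15 intestinal samples was hybridised by the authors to 1-colour Agilent arrays of 60-base probes, 1 array per rat. The deposited intensities are processed signals of Feature Extraction (10.7.3.1 per the file headers), with background and spatial trend subtracted by the authors. The deposited series table holds their log2 quantile-normalized values and served as an alternative.

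Control spots and spots flagged as outliers were left out, replicate spots were averaged per probe, and the 41012 remaining probes were quantile-normalized on the log2 scale. Probes well above background on all 5 arrays of at least 1 group were fitted with limma 3.58.1 in R 4.3.3, with all 3 groups in 1 model and Benjamini-Hochberg adjustment over 27892 probes at 0.05. Each rat is 1 replicate. Array number limits the precision. 74 of 83 probes matched RefSeq by accession.

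The text names every called probe, up to 2 of the highest-signal uncalled genes per family and role, members measured in 1 group and on at most 1 array of another, and genes whose probes disagree. Il22ra1, Il27ra, Il2ra and the untested members were added to complete the account. The members, lists and tests were chosen with earlier results of these data known. Alternatives changed the scaling, background correction, filter, flags, probe choice, test, slide or replicate block, array weights and the arrays included. The normexp correction used an offset of 50, so smaller changes of dim probes under it do not separate the correction from the offset. Sequence positions are those of the files (rn4). No genome of that build was used here. The signalling list's count for GK-S-30 versus GK-Sham-PF is not reported here.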

Additional observations from a re-analysis of the deposited data

Results flagged for a closer look

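In 14 of 156 sets of 5 arrays (8.97%), 1 rat stood apart from the other 4 of its group by Dixon's criterion, which chance meets in about 1 in 20 sets. Wistar replicate 3, a dim array, stood apart in 4 of them, with 11.02 and 11.55 (log2 signal) for 2 Il13ra1 probes (other rats 10.47 to 10.57 and 10.64 to 10.8), 6.87 for Il17b (7.18 to 7.28) and 6.4 for Il18bp (7.11 to 7.32). GK-Sham-PF replicate 5, the other dim array, read 4.56 for Il12a (5.48 to 5.81) and 3.82 for Il2 (4.63 to 4.75). GK-Sham-PF replicate 3 read 3.91 for Il1r1 (4.48 to 4.65) and 6.01 for Il1rl1 variant 2 (4.67 to 4.95).

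GK-S-30 replicate 1 read 5.83 for the A_43_P21070 probe of Il17ra (4.76 to 4.94), 8.96 for Il3ra (8.52 to 8.55) and 3.97 for Il7 (4.97 to 5.34). GK-S-30 replicate 4 read 6.65 for the A_44_P129187 probe of Il17ra (4.72 to 4.91), so the Il17ra probes were high in different rats. GK-S-30 replicate 2 read 7.73 for Il6r (7.15 to 7.23), and Wistar replicate 2 read 9.33 for Il17re (9.48 to 9.54).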

How the results depend on the processing

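The counts of called probes (7 for GK-S-30 versus GK-Sham-PF, 5 for GK-Sham-PF versus Wistar, 22 for GK-S-30 versus Wistar) moved by over 1.5 times under some alternatives. Scaling to the 75th percentile gave 12 for the first pair. The Tukey test of the study's methods gave 17 and 8 for the first 2 pairs unadjusted, and 3, 3 and 13 after Benjamini-Hochberg adjustment. Array weights gave 13 and 14 for the first 2 pairs, and the probe of highest signal per gene gave 3 for the second. With slide as a fixed block limma called 3, 0 and 0, with 15, 6 and 11 probes at an unadjusted p under 0.05. That fit rests on few arrays per shared slide, and within a slide no test was made. In it 3 values for GK-S-30 versus Wistar changed sign, Il11ra1 to -0.071, Il2 to 0.003 and Il9r to 0.021 on the log2 scale. The cause was not tested. Leaving out 1 array at a time gave 5 to 10, 4 to 6 and 18 to 23 calls. Of the values of single probes, 1219 stayed on their side of the threshold or within the spread, 128 lost and 66 gained a call, 7 moved and 3 changed sign.

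The replicate block gave 3 calls for GK-Sham-PF versus Wistar and 6 and 17 for the other pairs. The replicate numbers did not pair the arrays, since deviations from the group means of same-numbered arrays correlated at -0.28 to 0.19, with 2 of 15 over 0.1, and an array correlated best with its own number in 3 of 30 cases. Members near background, such as Il9r, Il4 and Il2, are limited by signal.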
